A study of Mus musculus with 10 samples.

Results

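The tumour suppressor gene Trp53, which encodes p53, and 9 of its known target genes were followed at the mRNA level in 5 lines of mouse embryonic stem cells (ESCs). The targets were Cdkn1a, Mdm2, Ccng1, Trp53inp1, Zmat3, Sesn1, Phlda3, Aen and Eda2r, taken by name. They and Trp53 are 10 of the 21853 protein-coding genes that the authors listed. All 10 were among the 12060 genes with a TPM (a transcript measure scaled for gene length) of 1 or more in 2 or more libraries, and none of them was below 4.90 TPM in any library.

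The study asked what glycogen and the energy-sensing kinase AMPK do in the naïve state of pluripotency. Bulk RNA was sequenced in 2 libraries of each line, 10 in all. Naïve ESCs were the wild-type line J1. GKO carried an indel in Gys1 (muscle glycogen synthase), AKO was knocked out for AMPK, and DKO for both, all in J1. Primed ESCs (PJ1) were wild type. According to the sample records, J1 was grown on gelatin in medium with serum, leukemia inhibitory factor, the MEK inhibitor PD0325901 and the GSK3β inhibitor CHIR99021, called the naïve medium below. No other medium is given for the knockout lines, which are taken to have been grown alike. Primed ESCs were grown on Matrigel with serum replacement, bFgf and Activin, so that in PJ1 the cell state and the medium cannot be told apart. The AMPK knockout was directed at Prkaa1, which encodes the α1 catalytic subunit, by plasmids that also bring in a red fluorescent reporter, and Prkaa2, for the α2 subunit, was not targeted. According to the methods, GKO was picked as single clones and the AMPK knockout was checked in pooled clones, with an untargeted clone as control. Which clones the libraries came from is not given in the sources used here, so that knockout and clone cannot be told apart. Nor is it given whether the 2 libraries of a line came from separate cultures, so the p-values measure the spread between these libraries only, which may be technical.

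As background, p53 is a transcription factor that is held at a low level by the ubiquitin ligase Mdm2, itself a p53 target, and that accumulates after DNA damage, oncogene signalling, ribosomal stress or nutrient shortage. Its targets stop the cell cycle, trigger apoptosis, repair DNA or limit oxidative stress and growth signalling. Mouse ESCs contain much p53 mRNA and protein and have a short G1 phase with a weak G1 checkpoint. Because p53 is controlled largely through protein stability, location and modification, mRNA levels measure neither its amount nor its activity.

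The targeted genes were examined first. Prkaa1 was at 15.5 and 16.6 TPM (naïve ESCs) and at 12.2 and 12.0 TPM (GKO). It was at 7.24 and 6.94 TPM (AKO), at 2.30 and 2.04 TPM (DKO) and at 13.4 and 13.7 TPM (primed ESCs). Both lines labelled as AMPK knockouts were thus below every other library, and DKO was below AKO. Prkaa2 was at 2.38 and 2.41 TPM (naïve ESCs), 2.70 and 2.44 TPM (AKO), 3.29 and 3.10 TPM (DKO), 3.27 and 3.29 TPM (GKO), and 8.30 and 9.38 TPM (primed ESCs). Gys1 was at 11.5 and 10.8 TPM (naïve ESCs), 12.7 and 12.2 TPM (AKO), 12.1 and 11.7 TPM (DKO), 9.70 and 9.98 TPM (GKO), and 13.6 and 14.3 TPM (primed ESCs). An indel need not lower the mRNA, so Gys1 does not check the labels of GKO and DKO.

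The cell types were then checked against markers. The 8 markers of naïve ESCs summed to between 1237 and 1273 TPM in naïve ESCs and AKO, to between 1391 and 1454 TPM in DKO and GKO and to 33.3 and 25.7 TPM in primed ESCs. The 6 markers of primed ESCs summed to 69.9 and 69.7 TPM in GKO, to between 41.4 and 50.9 TPM in the other libraries of the naïve medium and to 388.5 and 437.6 TPM in primed ESCs. Among them, Zic2 rose by 1.20 in GKO (adjusted p = 3.97e-05, limma), where Otx2 (-0.05), Dnmt3b (0.00) and Lef1 (0.02) were not called. In DKO, Dnmt3b rose by 0.55 (adjusted p = 0.000191), whereas Zic2 fell by 1.35 (adjusted p = 2.91e-05), Otx2 fell by 0.91 and Lef1 fell by 0.45 (adjusted p = 0.00623). Fibroblast markers, which feeder cells would bring, were all under 1 TPM in the naïve medium, where the 6 genes summed to at most 0.831 TPM, and came to 6.49 and 7.18 TPM in primed ESCs, led by Col1a2 at 4.18 and 4.84 TPM with Dcn and Lum at 0. The 5 primitive endoderm markers summed to 5.35 TPM in replicate 1 of primed ESCs, of which Sox17 made 3.04 TPM, to 0.845 TPM in replicate 2, to 2.02 and 2.07 TPM in GKO, and to at most 1.14 TPM elsewhere. The 5 trophectoderm markers summed to 7.46 and 8.43 TPM (GKO) and 7.50 and 7.45 TPM (DKO), against 3.60 and 3.32 TPM (naïve ESCs) and 2.70 and 2.80 TPM (AKO), with Cdx2 as the most abundant gene in each. In primed ESCs they summed to 1.27 and 0.243 TPM. The part of these marker differences in the results for p53 targets was not tested. In bulk RNA, fewer cells with a transcript and less of it per cell cannot be told apart.

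Most of these genes had more mRNA in GKO and DKO than in naïve ESCs. With GKO set against naïve ESCs, limma called 8 of the 10 genes, 7 higher and 1 lower (adjusted p below 0.05). Of all tested genes, 51.7% were called in that comparison, 24.7% higher and 27.1% lower. The libraries of GKO and naïve ESCs did not overlap for any of the 10 genes, as for 81.6% of all tested genes. The median change of the 10 genes was 0.51 on the log2(TPM + 1) scale, against -0.01 for all tested genes.

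In DKO, 9 of the 10 genes were higher than in naïve ESCs, where 46.0% of all tested genes were called, 21.7% higher and 24.3% lower. The libraries did not overlap for any of the 10 genes, as for 78.8% of all tested genes. The median change was 0.64, against -0.01. Cdkn1a, the remaining gene, had a change of -0.34.

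In AKO, limma called 0 of the 10 genes, and 1 of them (Trp53inp1) had an unadjusted p under 0.05. The background was low as well, with 0.224% of all tested genes called, 0.0663% higher and 0.158% lower, and 10.2% at an unadjusted p under 0.05. The libraries did not overlap for 7 of the 10 genes, against 49.3% of all tested genes. The count differed between settings, as did the share of all tested genes called. Without both libraries of primed ESCs, or without either replicate 1 or replicate 2 of primed ESCs, Ccng1 and Trp53inp1 were called higher in AKO, whereas a fit of AKO and naïve ESCs alone called 0 of the 10 genes.

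In primed ESCs, 8 of the 10 genes differed from naïve ESCs, 7 higher and 1 lower, against a background of 80.0% of all tested genes called, 37.4% higher and 42.5% lower. The share called in either direction was thus that of the background. The libraries did not overlap for 8 of the 10 genes, against 88.5% of all tested genes. With no filter on low values the count fell to 5, where 50.7% of the 21853 listed genes were called. It also changed when 1 library was left out, as did the share of all tested genes called. The median absolute log2 difference between replicates was 0.13 in primed ESCs and 0.06 to 0.07 in the other lines. As limma shared 1 spread per gene among all lines, the SE may be too small for primed ESCs and too large elsewhere. The part of this in the calls was not tested.

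The scale of the values bears on these directions, since the listed TPM summed to between 500162 and 578952 per library. Rescaling every library to a common sum, an alternative chosen after the data were seen, moved the median change of all genes by 0.10 in GKO and by 0.16 in primed ESCs. The split of all called genes then went from 2978 higher and 3263 lower to 3992 and 2097 in GKO, and from 2616 and 2928 to 3107 and 2172 in DKO. It went from 8 and 19 to 3 and 15 in AKO and from 4513 and 5130 to 5341 and 4020 in primed ESCs. For GKO against DKO it went from 2554 and 2698 to 2927 and 2043, and for DKO against AKO from 2702 and 2885 to 3353 and 2017. Among the 10 genes, the sign of a change turned with this rescaling only for Trp53, in AKO, in primed ESCs and in GKO against DKO, none of which had been called. Calls moved too, with Mdm2 (0.30, adjusted p = 0.0199, limma) and Aen (0.26, adjusted p = 0.0207) gained in GKO, where all 10 genes were then called. Phlda3 was gained (0.36, adjusted p = 0.00544) and Aen lost (-0.125, adjusted p = 0.168) in primed ESCs, and Cdkn1a was lost in DKO against AKO (-0.33, adjusted p = 0.0608).

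**Figure D1:**
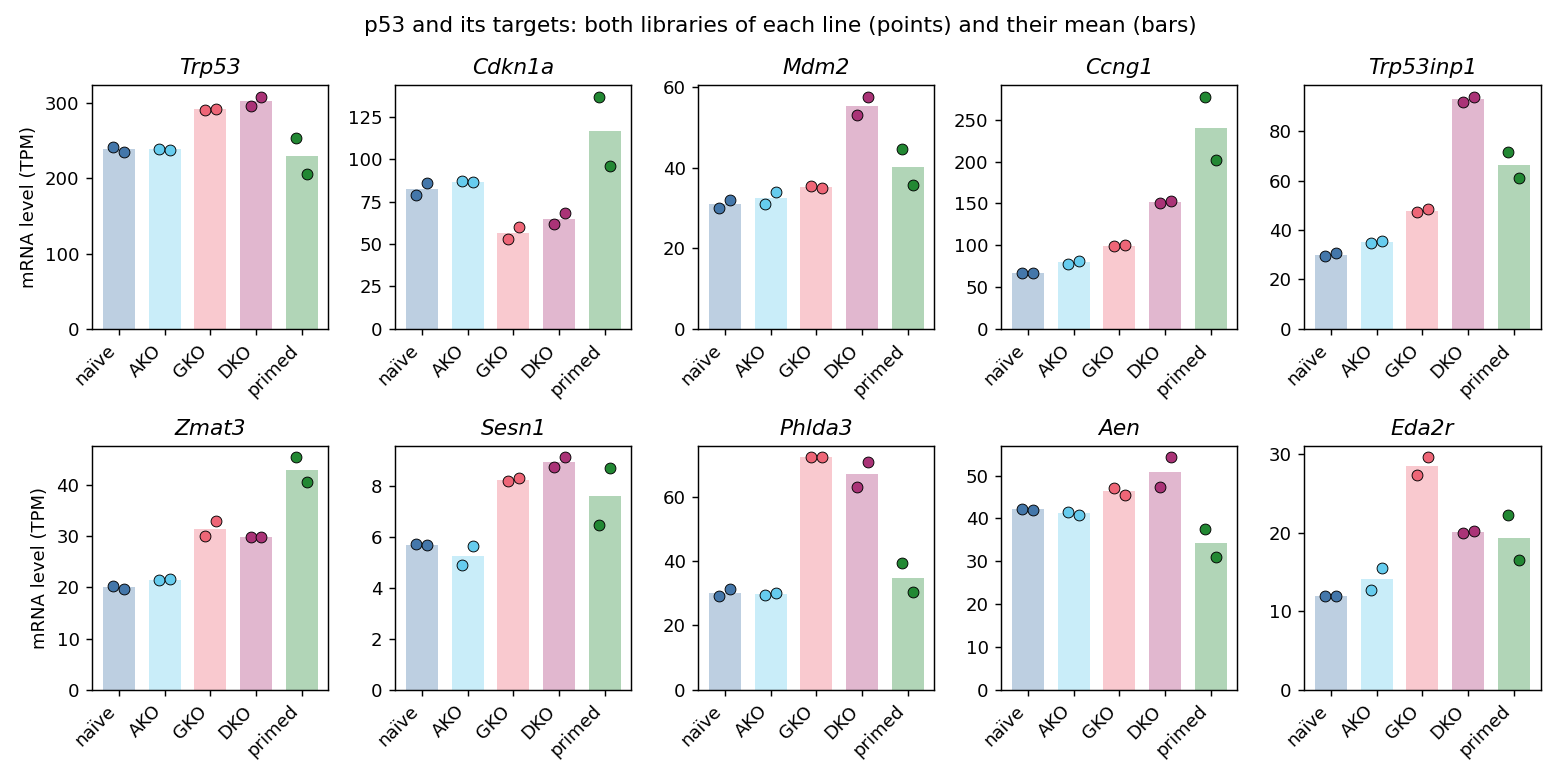
mRNA level in TPM (y axes, from 0) of Trp53 and 9 of its targets in naïve ESCs, AKO, GKO, DKO and primed ESCs, with both libraries of a line as points and their mean as a bar. Cdkn1a is lowest in GKO and DKO, whereas the other genes are higher in GKO and DKO than in naïve ESCs and AKO.

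Compared in TPM, which allows for length, Trp53 itself was the most abundant of the 10 transcripts in every library except replicate 1 of primed ESCs, where Ccng1 was above it. It was at 241.8 and 234.7 TPM (naïve ESCs), 238.4 and 238.0 TPM (AKO), 290.4 and 292.3 TPM (GKO), and 295.3 and 308.4 TPM (DKO). The libraries of GKO and DKO were all above those of naïve ESCs and AKO, which overlapped each other. Primed ESCs, at 253.7 and 205.5 TPM, spread around the naïve level on both sides.

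Against naïve ESCs, Trp53 rose by 0.29 in GKO (log2, SE 0.08, adjusted p = 0.0176, limma) and by 0.34 in DKO (SE 0.08, adjusted p = 0.00936). Its changes in AKO, 0.00 (SE 0.08), and in primed ESCs, -0.06 (SE 0.08), were not called. With no filter on low values, the rises in GKO and DKO were not called (adjusted p = 0.0750 and 0.0506, limma). The rise in GKO is near the limit of what 2 libraries show. Its adjusted p ran from 0.000291 to 0.0890 over 20 alternative settings and missed the threshold without replicate 1 or 2 of naïve ESCs (0.0572 and 0.0890) and without replicate 1 or 2 of GKO (0.0676 and 0.0733). In DKO the range was 0.000152 to 0.0581, with 0.0581 without replicate 2 of naïve ESCs and 0.0580 without replicate 2 of DKO. For primed ESCs the sign was not stable, being -0.21 (adjusted p = 0.00252) without replicate 1 and 0.09 (adjusted p = 0.0985) without replicate 2, and 0.19 (adjusted p = 0.0206) under quantile normalization, so that both a fall and a rise passed the threshold in 1 setting each, within a range of 0.00252 to 0.976. The mouse genome also holds a processed pseudogene, Trp53-ps on chromosome 17, and RSEM may share reads between the copies, so the level of Trp53 is uncertain to that extent.

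The other members of the family, p63 and p73, were scarce. Trp63 was at most 0.0830 TPM in any library and was not tested. Trp73 was at 0.841 and 0.969 TPM (naïve ESCs), 0.673 and 1.10 TPM (AKO), 1.40 and 1.27 TPM (GKO), 1.77 and 2.17 TPM (DKO), and 2.83 and 1.45 TPM (primed ESCs). Its rise in DKO (0.64, adjusted p = 0.0247) held in 13 of 19 settings with a value and was lost without replicate 1 or 2 of naïve ESCs or of DKO. That in primed ESCs (0.69, adjusted p = 0.00936) held in 16 of 18, and was 0.36 without replicate 1 of primed ESCs.

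Mdm2, the ubiquitin ligase that marks p53 for degradation and closes the feedback loop, set DKO apart. It was at 30.0 and 31.9 TPM (naïve ESCs), 31.1 and 33.9 TPM (AKO), 35.5 and 34.9 TPM (GKO), 53.1 and 57.7 TPM (DKO), and 44.7 and 35.7 TPM (primed ESCs). Naïve ESCs and AKO overlapped, GKO was just above both, and DKO was above every other library.

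The rise of Mdm2 was 0.82 in DKO (SE 0.10, adjusted p = 0.000215, limma) and 0.36 in primed ESCs (SE 0.10, adjusted p = 0.00745), the latter 0.20 without replicate 1 of primed ESCs. For GKO the change of 0.18 (SE 0.10, adjusted p = 0.150) was not called, although it passed in 6 of 20 settings, with adjusted p between 0.0171 and 0.422, among them the fits without replicate 1 (0.0271) or replicate 2 (0.0270) of primed ESCs. Directly compared, Mdm2 was lower in GKO than in DKO by 0.64 (SE 0.10, adjusted p = 0.000924).

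Of 12 genes listed as Mdm2 and other inhibitors of p53, 5 were higher and 1 lower in GKO, and 5 higher and 2 lower in DKO. In primed ESCs 4 were higher and 7 lower, and in AKO none was called. Of all tested genes, 51.7% were called in GKO, 46.0% in DKO and 80.0% in primed ESCs, and the share of the list in GKO was near that. Mdm4, the Mdm2 partner that blocks the transactivation domain of p53, was at 38.6 and 42.7 TPM (naïve ESCs), 47.3 and 47.4 TPM (AKO), 52.9 and 57.0 TPM (GKO), 72.7 and 70.6 TPM (DKO), and 17.9 and 18.6 TPM (primed ESCs). None of these lines overlapped, and the order of their means matched that of Mdm2 from naïve ESCs through AKO and GKO to DKO, while primed ESCs were lowest. Mdm4 rose by 0.43 in GKO (adjusted p = 0.000382, limma) and 0.80 in DKO (adjusted p = 1.91e-05) and fell by 1.11 in primed ESCs (adjusted p = 1.76e-07).

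Ppm1d, a phosphatase that removes activating phosphates from p53 and is itself a target, was between 12.9 and 15.9 TPM in the naïve medium and at 30.8 and 25.5 TPM in primed ESCs, a rise of 1.01 (adjusted p = 5.62e-06, limma). Usp7, which removes ubiquitin from Mdm2 and p53, was between 131.4 and 142.6 TPM in the naïve medium and fell by 0.92 in primed ESCs (adjusted p = 8.20e-08). Cdkn2a encodes p16 and p19Arf from overlapping reading frames, which a gene-level value does not separate, and p19Arf inhibits Mdm2. Cdkn2a was at 29.5 and 27.8 TPM (naïve ESCs), 28.1 and 27.2 TPM (AKO), 31.3 and 31.7 TPM (GKO), 16.6 and 18.6 TPM (DKO), and 1.18 and 0.385 TPM (primed ESCs). DKO and primed ESCs were thus the low lines. Cdkn2a fell by 0.68 in DKO (adjusted p = 0.0107, called in 16 of 20 settings) and by 4.09 in primed ESCs (adjusted p = 3.61e-08). Without replicate 1 of naïve ESCs or replicate 1 of DKO, its call in DKO was lost.

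Genes upstream of p53 were examined as well. Of 17 damage kinases and other activators, 2 were higher and 3 lower in GKO, 3 higher and 3 lower in DKO, and 3 higher and 7 lower in primed ESCs, with none called in AKO. The shares of all tested genes called were 51.7% in GKO, 46.0% in DKO and 80.0% in primed ESCs, above those of this list. Atm, the kinase that responds to double-strand breaks, was between 13.0 and 15.8 TPM in the naïve medium, and its changes in GKO (-0.16) and DKO (-0.18) were not called. In primed ESCs, at 9.55 and 8.40 TPM, Atm fell by 0.73 (adjusted p = 1.18e-05, limma). Atr, which responds to stalled replication, was between 11.4 and 14.0 TPM in all 10 libraries and was not called in any comparison. Chek1 and Chek2, the kinases downstream of them, were called lower in primed ESCs (-0.36 and -0.62), and Chek2 was called higher in DKO (0.25, adjusted p = 0.0332, limma, held in 11 of 20 settings and lost without replicate 1 or 2 of naïve ESCs, AKO, DKO or GKO).

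Prkdc, the catalytic subunit of DNA-PK, had the largest fall among the genes of the p53 lists in GKO. It was at 6.43 and 6.52 TPM (naïve ESCs), 6.93 and 6.76 TPM (AKO), 3.04 and 2.82 TPM (GKO), 4.23 and 3.94 TPM (DKO), and 6.31 and 7.48 TPM (primed ESCs). It was low in GKO and DKO, which did not overlap the other lines. It fell by 0.93 in GKO (adjusted p = 4.33e-05, limma) and by 0.56 in DKO (adjusted p = 0.000829).

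Among the targets that act on the cell cycle, Cdkn1a and Ccng1 had changes of opposite sign in GKO and in DKO against naïve ESCs, and of the same sign in AKO and primed ESCs. Cdkn1a encodes p21, the inhibitor of cyclin-dependent kinases through which p53 holds cells in G1. It was at 78.9 and 86.0 TPM (naïve ESCs), 87.0 and 86.5 TPM (AKO), 53.2 and 60.1 TPM (GKO), 61.7 and 68.4 TPM (DKO), and 137.1 and 95.9 TPM (primed ESCs). GKO and DKO lay below all other libraries, and primed ESCs above all others with replicates far apart.

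Cdkn1a fell by 0.53 in GKO (log2, SE 0.14, 95% confidence interval -0.86 to -0.21, adjusted p = 0.0120, limma). In DKO its change of -0.34 (SE 0.14, adjusted p = 0.0806) was not called against naïve ESCs, while against AKO it fell by 0.41 (SE 0.14, adjusted p = 0.0405). GKO and DKO were not called different from each other (-0.20, SE 0.14, adjusted p = 0.293). The sign of each of these changes was the same in all 20 settings, scalings included, but the calls were not. With no filter on low values, the fall in GKO was not called (adjusted p = 0.0719, limma). In GKO the adjusted p ranged from 0.000359 to 0.0836 and was above the threshold without replicate 2 of naïve ESCs (0.0736) and without replicate 1 of GKO (0.0836). In DKO against naïve ESCs it ranged from 0.00446 to 0.297 and passed without both primed libraries (0.00446), without replicate 1 (0.00451) and without replicate 2 (0.00452) of them. Against AKO the fall held in 7 of 20 settings (0.00169 to 0.188) and was lost on leaving out any single library of naïve ESCs (0.0563 for each), AKO (0.131 and 0.126), DKO (0.188 and 0.0742) or GKO (0.0538 for each). GKO was called lower than DKO at 0.0470 without either replicate of primed ESCs, in a range of 0.0468 to 0.683.

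In primed ESCs Cdkn1a was higher by 0.47 (SE 0.14, adjusted p = 0.0123, limma). This rise was not called with no filter on low values (adjusted p = 0.0650, limma) or in a fit of primed and naïve ESCs alone (0.0602). The size rested on 1 library, with 0.22 without replicate 1 and 0.73 without replicate 2, and the call was lost without replicate 1 of naïve ESCs (adjusted p = 0.0710, range 8.42e-05 to 0.0710).

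Ccng1 encodes cyclin G1, which brings a phosphatase to Mdm2 and acts in the p53 feedback. It was at 67.1 and 67.3 TPM (naïve ESCs), 77.4 and 81.5 TPM (AKO), 99.4 and 99.8 TPM (GKO), 150.0 and 153.0 TPM (DKO), and 277.7 and 202.1 TPM (primed ESCs). No line overlapped another, and the order from naïve ESCs through AKO, GKO and DKO to primed ESCs spanned 3.57-fold between the lowest and the highest mean. Ccng1 rose by 0.56 in GKO (SE 0.12, adjusted p = 0.00363, limma), by 1.16 in DKO (SE 0.12, adjusted p = 9.12e-05) and by 1.80 in primed ESCs (SE 0.12, adjusted p = 6.52e-07). These rises and the difference between GKO and DKO (-0.60, SE 0.12, adjusted p = 0.00332) were called in every setting run. In AKO the change was 0.24 (SE 0.12, adjusted p = 0.543), with a range of 0.0304 to 0.947 and 0.0309 and 0.0304 without replicate 1 or 2 of primed ESCs. In primed ESCs, the 59 tested genes within 10 Mb of Ccng1 had a median change of 0.53 and the 961 tested genes of chromosome 11 a median of 0.30. The part of that regional shift in the primed value of Ccng1 was not tested.

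The cell cycle list held 12 targets, of which 11 were in the tables and tested. In GKO 5 were higher and 1 lower, in DKO 4 higher and 1 lower, and in primed ESCs 7 higher and 3 lower, with 51.7%, 46.0% and 80.0% of all tested genes called. Btg2, an antiproliferative cofactor, was at 11.8 and 12.6 TPM (naïve ESCs), 14.6 and 14.5 TPM (AKO), 29.8 and 31.8 TPM (GKO), 36.8 and 40.5 TPM (DKO), and 37.7 and 55.8 TPM (primed ESCs). It rose by 1.27 in GKO (adjusted p = 0.000137, limma), 1.59 in DKO (adjusted p = 5.68e-05) and 1.83 in primed ESCs (adjusted p = 2.58e-06). Its libraries in these 3 lines were all above naïve ESCs and AKO.

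Gadd45a, a stress sensor that acts on the G2 checkpoint, had the largest rise of the p53 lists in GKO on the log2(TPM + 1) scale. It was at 9.85 and 7.40 TPM (naïve ESCs), 8.79 and 8.13 TPM (AKO), 28.7 and 22.1 TPM (GKO), 12.4 and 12.9 TPM (DKO), and 7.45 and 4.63 TPM (primed ESCs). GKO stood above all other lines, and the rise was 1.46 (adjusted p = 0.000330, limma), whereas the change of 0.51 in DKO (adjusted p = 0.0595) was not called.

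Plk2, a polo-like kinase, was higher in DKO than in GKO. It was at 6.86 and 6.30 TPM (naïve ESCs), 7.43 and 8.68 TPM (AKO), 7.70 and 8.02 TPM (GKO), 24.0 and 28.3 TPM (DKO), and 32.0 and 14.2 TPM (primed ESCs). AKO and GKO overlapped, and DKO and primed ESCs were high. Plk2 was lower in GKO than in DKO by 1.61 (adjusted p = 0.00201, limma) and rose in DKO against naïve ESCs by 1.84 (adjusted p = 0.000875). Sfn, which encodes the G2 regulator 14-3-3σ, rose by 0.92 in GKO (adjusted p = 0.000256) and 1.03 in DKO (adjusted p = 0.000183) but fell by 2.02 in primed ESCs (adjusted p = 3.40e-07).

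The targets linked to apoptosis and growth control follow. Trp53inp1 encodes a stress protein that promotes phosphorylation of p53 and takes part in autophagy. It was at 29.5 and 30.5 TPM (naïve ESCs), 34.7 and 35.6 TPM (AKO), 47.3 and 48.3 TPM (GKO), 91.8 and 94.0 TPM (DKO), and 71.7 and 60.9 TPM (primed ESCs). No lines overlapped, and DKO, not the primed line, was highest. It rose by 0.65 in GKO (SE 0.07, adjusted p = 9.00e-05, limma), by 1.60 in DKO (SE 0.07, adjusted p = 1.33e-06) and by 1.11 in primed ESCs (SE 0.07, adjusted p = 4.90e-07). GKO was below DKO by 0.94 (SE 0.07, adjusted p = 2.04e-05), and all of these calls held in every setting run. In AKO the change was 0.22 (SE 0.07, adjusted p = 0.288, range 0.0394 to 0.816), with 0.0394 and 0.0396 without replicate 1 or 2 of primed ESCs. The 41 genes within 10 Mb of Trp53inp1 had a median change of 0.54 in primed ESCs, and of 0.06 in GKO and 0.05 in DKO. Their part in the primed value was not tested.

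Phlda3 encodes a pleckstrin-homology protein that keeps Akt from the membrane. It was at 29.1 and 31.2 TPM (naïve ESCs), 29.5 and 30.0 TPM (AKO), 72.3 and 72.3 TPM (GKO), 63.2 and 70.8 TPM (DKO), and 39.3 and 30.4 TPM (primed ESCs). GKO and DKO were far above the other lines, which overlapped. The rise was 1.24 in GKO (SE 0.10, adjusted p = 2.87e-05, limma) and 1.12 in DKO (SE 0.10, adjusted p = 6.09e-05), called in all 20 settings, and GKO and DKO were not called different (0.11, SE 0.10, adjusted p = 0.424). In AKO the change was -0.02 (SE 0.10). In primed ESCs it was 0.19 (SE 0.10, adjusted p = 0.117, limma). The size rested on 1 library, with 0.01 without replicate 1 and 0.37 without replicate 2 of primed ESCs. Phlda3 was called in primed ESCs under each other scaling, at 0.35 (quantile, 0.0110), 0.25 (median-ratio, 0.0475) and 0.36 (common sum, 0.00544).

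Eda2r, the receptor for ectodysplasin A2 in the tumour necrosis factor receptor family, was at 11.9 and 11.9 TPM (naïve ESCs), 12.7 and 15.5 TPM (AKO), 27.3 and 29.6 TPM (GKO), 19.9 and 20.2 TPM (DKO), and 22.2 and 16.5 TPM (primed ESCs). GKO was above every other library, and the primed libraries lay on both sides of DKO. Eda2r rose by 1.19 in GKO (SE 0.13, adjusted p = 0.000103, limma), 0.71 in DKO (SE 0.13, adjusted p = 0.00209) and 0.65 in primed ESCs (SE 0.13, adjusted p = 0.00130), called in every setting run. GKO was above DKO by 0.49 (SE 0.13, adjusted p = 0.0150), lost without replicate 1 or 2 of DKO (0.0682 and 0.0627) or replicate 2 of GKO (0.0899), in a range of 0.00175 to 0.0899. Eda2r lies on the X chromosome, where its surroundings shifted too. The 69 tested genes within 10 Mb had a median change of 0.36 in GKO and -0.24 in DKO, and a median of 0.63 for GKO against DKO. For GKO against DKO, Eda2r thus differed by less than the median gene around it, and the part of the regional shift in its values was not tested. For the other 9 genes the medians within 10 Mb lay between -0.13 and 0.08 in GKO and DKO against naïve ESCs.

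Zmat3, a zinc finger protein that binds RNA and is a tumour-suppressive target, was at 20.3 and 19.8 TPM (naïve ESCs), 21.4 and 21.6 TPM (AKO), 30.0 and 33.1 TPM (GKO), 29.9 and 29.8 TPM (DKO), and 45.5 and 40.6 TPM (primed ESCs). The lines did not overlap, though GKO and DKO nearly touched. Zmat3 rose by 0.63 in GKO (SE 0.07, adjusted p = 8.50e-05, limma), 0.55 in DKO (SE 0.07, adjusted p = 0.000215) and 1.07 in primed ESCs (SE 0.07, adjusted p = 4.71e-07), called in every setting run. GKO and DKO were not called different (0.08, SE 0.07, adjusted p = 0.389).

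Aen, an exonuclease that degrades DNA in apoptosis, had the smallest change of the 10 genes in GKO and in DKO against naïve ESCs. It was at 42.2 and 42.0 TPM (naïve ESCs), 41.5 and 40.9 TPM (AKO), 47.2 and 45.5 TPM (GKO), 47.3 and 54.3 TPM (DKO), and 37.5 and 31.0 TPM (primed ESCs). The lines kept apart, with primed ESCs lowest, GKO and DKO highest and replicate 1 of DKO only just above GKO. The change of 0.14 in GKO (SE 0.09, adjusted p = 0.229, limma) was not called, but it passed in 3 of 20 settings (range 0.0207 to 0.489), among them a common sum (0.26, 0.0207) and quantile normalization (0.22, 0.0472). In DKO Aen was higher by 0.26 (SE 0.09, adjusted p = 0.0385), a call kept in 10 of 20 settings, with adjusted p from 0.00667 to 0.239. It was lost without replicate 1 or 2 of naïve ESCs (0.121 and 0.131), AKO (0.0589 for each) or GKO (0.0577 for each), and without replicate 2 of DKO the change was 0.16 (0.239). In primed ESCs Aen was lower by 0.30 (change -0.30, SE 0.09, adjusted p = 0.0126, range 0.000730 to 0.168), and without replicate 2 of primed ESCs the change was -0.16 (0.0723) and without replicate 1 of naïve ESCs -0.29 (0.0524). Quantile normalization (-0.13, 0.154) and a common sum (-0.125, 0.168) also ended that call.

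The apoptosis list held 20 targets, 18 of them tested. In GKO 10 were higher and 2 lower, in DKO 14 higher and 1 lower, in AKO none was called, and in primed ESCs 9 were higher and 5 lower. The shares of all tested genes were 24.7% higher and 27.1% lower in GKO, 21.7% and 24.3% in DKO, and 37.4% and 42.5% in primed ESCs. Among the genes that open the mitochondrial route, Bbc3 (Puma) was at 7.81 and 12.4 TPM (naïve ESCs), 12.3 and 11.1 TPM (AKO), 16.7 and 19.1 TPM (GKO), 20.8 and 24.2 TPM (DKO), and 24.0 and 24.7 TPM (primed ESCs). It rose by 0.80 in GKO (adjusted p = 0.00401, limma), 1.11 in DKO (adjusted p = 0.000809) and 1.22 in primed ESCs (adjusted p = 0.000117), with 0.50 in GKO without replicate 1 of naïve ESCs.

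Pmaip1 (Noxa) was at 2.75 and 2.20 TPM (naïve ESCs), 2.04 and 2.08 TPM (AKO), 8.59 and 7.42 TPM (GKO), and 4.65 and 5.11 TPM (DKO), and was listed at 0 in both libraries of primed ESCs. It rose by 1.37 in GKO (adjusted p = 1.39e-05, limma) and 0.76 in DKO (adjusted p = 0.000378). Bax, their effector, was between 190.2 and 211.4 TPM in the naïve medium and at 126.4 and 130.8 TPM in primed ESCs. For GKO, a change of -0.14 (adjusted p = 0.0255) was kept in 12 of 20 settings, was -0.01 at its smallest and was lost without replicate 1 or 2 of naïve ESCs or of GKO. Fas, a death receptor, was at most 0.145 TPM in any library and was not tested.

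Trp53i11, a p53-induced gene, separated GKO from DKO. It was at 4.04 and 4.34 TPM (naïve ESCs), 5.28 and 3.44 TPM (AKO), 11.5 and 12.2 TPM (GKO), 3.76 and 3.84 TPM (DKO), and 46.4 and 54.7 TPM (primed ESCs). It rose by 1.31 in GKO (adjusted p = 0.000118, limma) and 3.31 in primed ESCs (adjusted p = 5.19e-08), while its change of -0.11 in DKO was not called. Siva1, which acts with death receptors of the tumour necrosis factor family, fell by 0.61 in GKO (adjusted p = 3.43e-05), with 73.0 and 71.5 TPM against 114.6 and 106.4 TPM in naïve ESCs. Tnfrsf10b, the death receptor for Trail, rose by 2.18 in primed ESCs (adjusted p = 2.30e-08), and Bid, which links death receptors to mitochondria, fell there by 2.07 (adjusted p = 6.49e-10).

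Sesn1, a sestrin that lowers mTORC1 activity and oxidative stress, was the least abundant of the 10 genes in every library. It was at 5.74 and 5.68 TPM (naïve ESCs), 4.90 and 5.64 TPM (AKO), 8.20 and 8.35 TPM (GKO), 8.78 and 9.15 TPM (DKO), and 6.50 and 8.72 TPM (primed ESCs). GKO and DKO were above naïve ESCs and AKO, and the primed libraries overlapped GKO. Sesn1 rose by 0.47 in GKO (SE 0.11, adjusted p = 0.00858, limma) and 0.57 in DKO (SE 0.11, adjusted p = 0.00360), called in all 20 settings. In primed ESCs the rise was 0.35 (SE 0.11, adjusted p = 0.0200, limma), with 0.53 without replicate 1 and 0.16 without replicate 2 of primed ESCs. The call was lost without replicate 2 of primed ESCs and without replicate 1 or 2 of naïve ESCs. It was also lost under quantile normalization (0.20, adjusted p = 0.145, limma), with no filter on low values (0.0651) and in a fit of primed and naïve ESCs alone (0.0819).

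Its paralog Sesn2 was more abundant, at 31.9 and 31.7 TPM (naïve ESCs), 33.6 and 34.2 TPM (AKO), 38.5 and 38.9 TPM (GKO), 50.2 and 56.9 TPM (DKO), and 42.5 and 47.0 TPM (primed ESCs), with no overlap between lines. Sesn2 rose by 0.27 in GKO (adjusted p = 0.00809, limma), 0.73 in DKO (adjusted p = 5.69e-05) and 0.48 in primed ESCs (adjusted p = 0.000128). Of the 16 targets in metabolism and redox control, 7 were higher and 3 lower in GKO, 11 higher and 1 lower in DKO, and 6 higher and 6 lower in primed ESCs, where 51.7%, 46.0% and 80.0% of all tested genes were called.

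Dcxr, a carbonyl reductase, was at 3.45 and 4.58 TPM (naïve ESCs), 4.94 and 4.81 TPM (AKO), 7.97 and 7.56 TPM (GKO), 16.4 and 20.1 TPM (DKO), and 19.4 and 22.1 TPM (primed ESCs). Its rise of 1.94 in DKO (adjusted p = 1.07e-05, limma) was the largest of the p53 lists there. Ddit4 (Redd1), an inhibitor of mTORC1, rose by 0.92 in GKO (adjusted p = 0.0138, held in 17 of 20 settings), 1.66 in DKO (adjusted p = 0.000798) and 3.68 in primed ESCs (adjusted p = 9.34e-07), where it was at 82.0 and 146.6 TPM against 8.54 and 6.78 TPM in naïve ESCs. Its call in GKO was lost without replicate 2 of naïve ESCs and without replicate 2 of GKO.

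Pank1, a pantothenate kinase of coenzyme A synthesis, was lower in both lines with a Gys1 knockout, at 11.9 and 12.8 TPM (GKO) and 10.5 and 12.0 TPM (DKO) against 19.8 and 19.0 TPM (naïve ESCs). It fell by 0.61 (adjusted p = 0.00162, limma) and by 0.74 (adjusted p = 0.000723). It was as low in primed ESCs, at 12.5 and 9.63 TPM, where it fell by 0.77 (adjusted p = 0.000148). Cpt1c, a carnitine palmitoyltransferase isoform, rose by 0.43 in GKO (adjusted p = 0.000508), 1.30 in DKO (adjusted p = 2.49e-06) and 1.25 in primed ESCs (adjusted p = 1.27e-07), and GKO against DKO gave -0.86 (adjusted p = 2.04e-05). Tigar, which lowers fructose-2,6-bisphosphate, was between 29.4 and 34.0 TPM in the naïve medium and fell by 1.96 in primed ESCs (adjusted p = 4.08e-09).

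Of 10 DNA repair targets, 5 were higher and 1 lower in GKO, 3 higher and 0 lower in DKO, and 1 higher and 6 lower in primed ESCs. The shares of all tested genes called were 51.7%, 46.0% and 80.0%, so that the list was below them in DKO and primed ESCs. Ddb2, which recognises ultraviolet damage, was between 3.58 and 4.37 TPM in the naïve medium and was not called in GKO, DKO or AKO. Its change in primed ESCs was -0.26 (adjusted p = 0.0355, limma), and ran from -0.55 to -0.13 over 18 settings with a value. The call was kept in 9 of these settings. It was lost without replicate 1 or 2 of naïve ESCs or of DKO or replicate 1 of primed ESCs.

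Taking all lists of targets together and leaving out the genes described individually at the start, 47 further targets were tested. In GKO 21 of them were higher and 6 lower, in DKO 25 higher and 3 lower, in AKO 0 were called, and in primed ESCs 17 were higher and 19 lower. Of all tested genes, 24.7% were higher and 27.1% lower in GKO, 21.7% and 24.3% in DKO, and 37.4% and 42.5% in primed ESCs. The number called in either direction was thus near the background of 51.7% in GKO and of 80.0% in primed ESCs, while those called in GKO and DKO were mostly higher. Their median change was 0.19 in GKO, 0.25 in DKO, 0.05 in AKO and 0.00 in primed ESCs when rounded. The first group of 10 thus had larger medians than the wider lists in GKO and DKO, and the 10 were chosen with earlier results known.

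**Figure D2:**
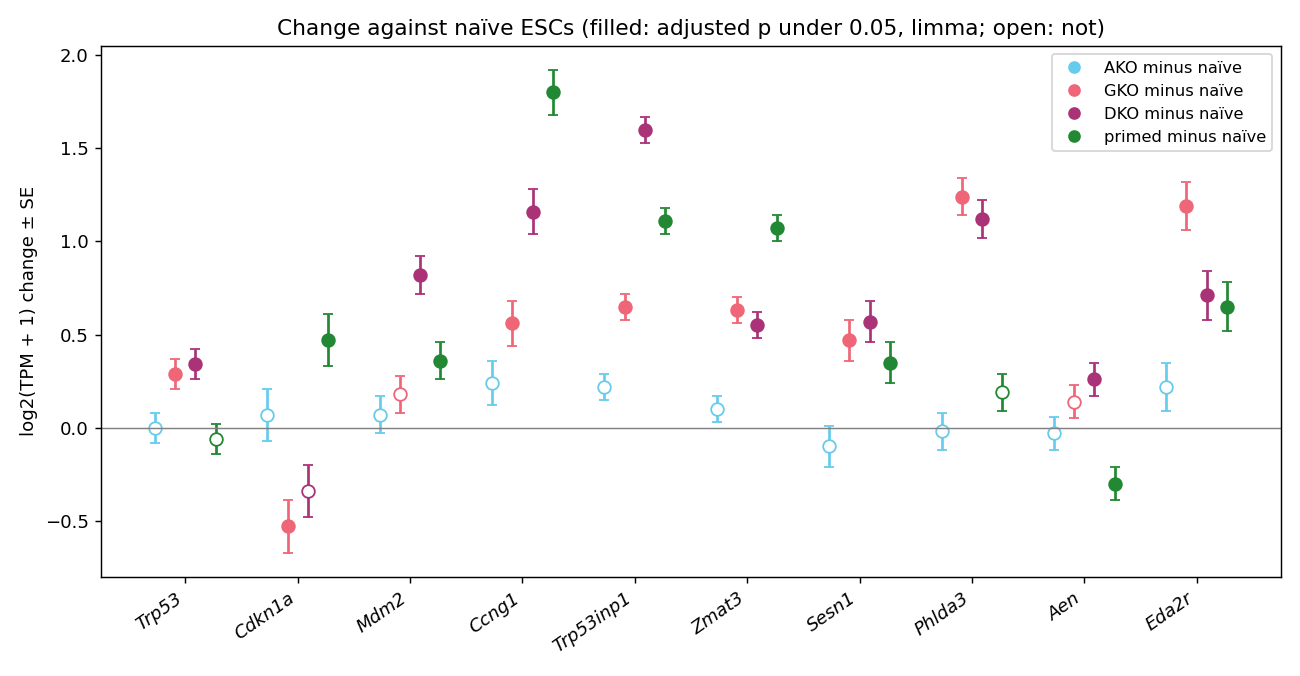
Change of log2(TPM + 1) against naïve ESCs with its SE from limma (y axis) for each of the 10 genes (x axis) in AKO, GKO, DKO and primed ESCs. Filled points passed an adjusted p of 0.05, and the open points include all 10 genes in AKO.

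DKO was also compared with AKO. These lines differ in the Gys1 knockout but also in Prkaa1 mRNA, which was lower in DKO, and whether DKO was made from AKO is not given in the sources used here, so that Gys1 loss, the extent of the AMPK knockout and clone cannot be told apart. The comparison shares no library with the comparison of GKO with naïve ESCs. All 10 genes were called between DKO and AKO, 9 higher and 1 lower, with 46.3% of all tested genes called, 22.4% higher and 23.9% lower. The libraries did not overlap for any of the 10 genes, as for 77.0% of all tested genes. The median change was 0.58, against 0.00 for all genes when rounded. Without replicate 2 of DKO, Trp53 (0.31), Cdkn1a (-0.48), Aen (0.19) and Eda2r (0.47) were not called. Fewer of all tested genes were called in that setting as well. Aen was also lost without replicate 1 or 2 of AKO (0.0835 and 0.100, in a range of 0.00369 to 0.170), and Eda2r without replicate 1 of AKO (0.104) or of DKO (0.0566), in a range of 0.00174 to 0.104.

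Side by side, all 10 genes had the same sign in both comparisons, as did 69.5% of all tested genes. Of the 10, 8 were called in both in the same direction, 7 higher and 1 lower, against 26.7% of all tested genes, 12.6% higher and 14.0% lower. Trp53 changed by 0.29 and 0.34, Phlda3 by 1.24 and 1.14, Zmat3 by 0.63 and 0.46, Sesn1 by 0.47 and 0.67, and Cdkn1a by -0.53 and -0.41. For these genes the difference between the 2 changes was tested as an interaction and was not called, with adjusted p between 0.209 and 0.788.

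The interaction was called for 3 of the 10 genes, 1 higher and 2 lower, with 25.8% of all tested genes called, 12.8% higher and 13.1% lower. Trp53inp1 rose less from naïve ESCs to GKO (0.65) than from AKO to DKO (1.38), a difference of -0.72 (SE 0.10, adjusted p = 0.00116, limma) that was called in all 20 settings. Mdm2 changed by 0.18 and 0.75, a difference of -0.57 (SE 0.14, adjusted p = 0.0158), called in 15 of 20 settings (0.00139 to 0.0784) and lost without replicate 2 of naïve ESCs (0.0614), replicate 1 of AKO (0.0631), replicate 2 of DKO (0.0631) or replicate 2 of GKO (0.0540). Eda2r changed by 1.19 and 0.48, a difference of 0.71 (SE 0.18, adjusted p = 0.0213), called in 13 of 20 settings (0.00289 to 0.101). It was lost without replicate 1 or 2 of naïve ESCs (0.0642 and 0.0634), replicate 2 of AKO (0.0738), replicate 1 or 2 of DKO (0.0625 and 0.0621) or replicate 2 of GKO (0.0758). The genes within 10 Mb of Eda2r had a median interaction of 0.62.

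Ccng1 leaned the same way as Mdm2 and Trp53inp1, with changes of 0.56 and 0.92 and an interaction of -0.36 (SE 0.16, adjusted p = 0.139) that was not called in the fit of all 10 libraries. It passed without replicate 1 (0.00121) or replicate 2 (0.00122) of primed ESCs, in a range of 0.00119 to 0.352. In the direct comparison of GKO with DKO, 4 of the 10 genes were called, 1 higher (Eda2r) and 3 lower (Mdm2, Ccng1 and Trp53inp1), with 43.5% of all tested genes called, 21.2% higher and 22.4% lower. The libraries did not overlap for any of the 10 genes, as for 76.7% of all tested genes. Both DKO libraries were above both GKO libraries for these 3 genes.

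**Figure D3:**
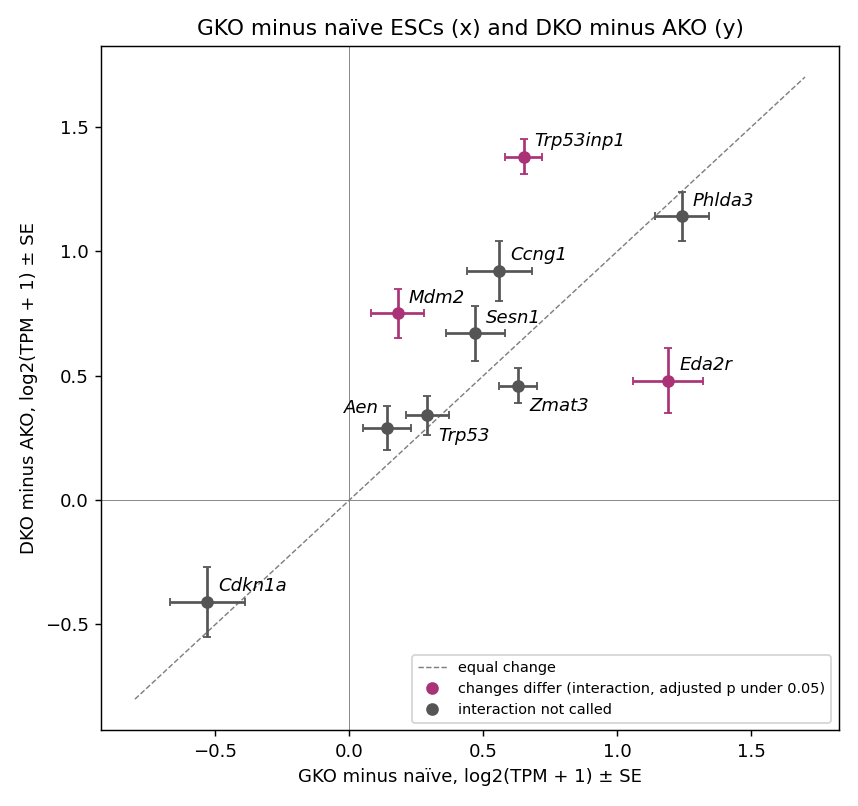
Change of log2(TPM + 1) in GKO minus naïve ESCs (x axis) and in DKO minus AKO (y axis), each with its SE from limma, for the 10 genes. Mdm2 and Trp53inp1 lie above the dashed line of equal change and Eda2r below it, and these 3 have a called interaction.

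The 10 genes did not form 1 pattern over the libraries. Pearson correlations of log2(TPM + 1) over the 10 libraries are given as a description, since the libraries come in pairs of the same line and share the contrast between lines. Ccng1 and Zmat3 correlated at 0.93, Mdm2 and Trp53inp1 at 0.94, and Trp53 and Phlda3 at 0.92. Trp53 correlated at 0.89 with Aen but at 0.09 with Ccng1 and 0.15 with Zmat3. Cdkn1a was negatively correlated with Trp53 (-0.66), Phlda3 (-0.70) and Aen (-0.70).

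Among all tested genes, the 3 most like Trp53 over the 10 libraries were Pcdh19 (r = 0.974), Ak1 (r = 0.969) and Smox (r = 0.966). The 3 most like Cdkn1a were Pes1 (r = 0.974), Psmc5 (r = 0.973) and Eif5a (r = 0.968). For Mdm2 they were Cdc23 (r = 0.988), Umps (r = 0.980) and 9330159F19Rik (r = 0.978), and for Ccng1 they were Ercc5 (r = 0.995), Inka2 (r = 0.995) and Psrc1 (r = 0.990). The profile of Psrc1, for example, had means of 52.3 TPM in naïve ESCs, 60.7 in AKO, 75.0 in GKO, 98.7 in DKO and 145.8 in primed ESCs, the same order as Ccng1. Ak1 and Ercc5 are themselves on the lists of targets.

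As a description of the DNA near the 10 genes, the p53 response element was searched in GRCm39. The search covered 3000 bases on either side of the start of the canonical transcript. The element is a pair of 10-base copies around a conserved core, and it was read on the gene's strand, which its palindromic form makes equal to the other strand. Both cores had to be exact, the copies had to adjoin, and 1 mismatch was allowed outside the cores. An element was found for 3 of the 10 genes, against 0.711% of the 18994 windows of the same length around protein-coding genes (135 windows). With no mismatch there was 1 of the 10, against 0.111% (21 windows). All of the genes but Trp53 were taken as known targets of p53, so a share above that of all windows is no independent result. Copies set apart by a spacer, more mismatches and greater distances were not searched, so an absent match says nothing of the other 7 genes.

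The 3 elements are shown with 20 bases on each side, 5′ to 3′ on the gene's strand, and the capitals mark the 20 bases of the element. That of Cdkn1a lies at chr17:29309902-29309921 on the plus strand, 2836 bases upstream of the canonical start and upstream of the annotated gene, which begins at base 29309936, and it has 1 mismatch. That of Ccng1 lies at chr11:40645763-40645782 on the minus strand, 356 bases downstream of the canonical start in intron 1, with 1 mismatch. That of Zmat3 lies at chr3:32418480-32418499 on the minus strand, 1409 bases downstream of the canonical start in intron 1, with 0 mismatches.
Cdkn1a: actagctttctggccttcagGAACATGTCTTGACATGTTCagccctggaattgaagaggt
Ccng1: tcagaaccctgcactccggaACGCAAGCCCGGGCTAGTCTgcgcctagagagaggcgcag
Zmat3: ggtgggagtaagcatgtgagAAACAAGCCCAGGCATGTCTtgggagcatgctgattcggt
A match describes the sequence and not binding, which was not measured. The mRNA of the 3 genes with an element went in both directions in GKO, with Ccng1 and Zmat3 higher and Cdkn1a lower. The same 3 genes were among the 7 of the 10 called higher in primed ESCs, where 37.4% of all tested genes were called higher. The call of Cdkn1a there was not kept in every setting. Any link between the elements and these changes was not tested.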

How the data were processed

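RNA of 5 mouse ESC lines was sequenced in 2 libraries each, with line and replicate number read from the labels. The authors trimmed the reads (Trim Galore 0.6.6 in the submitters' processing notes), aligned them with STAR (2.7.9a in those notes), estimated expression with RSEM (1.3.3) and deposited TPM for protein-coding genes. The methods name GRCm39 and the notes GRCm38, and methods and labels also name different library kits and sequencers. The tables hold no coordinates. TPM keeps no depth, so the reads behind each value are unknown and no counting interval or detection limit is given.

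From the deposited TPM, log2(TPM + 1) was fitted with limma 3.58.1 in R 4.3.3 for genes that reached 1 TPM in 2 or more libraries, with a mean per line, an intensity trend, Benjamini-Hochberg adjustment over the 12060 tested genes in each comparison and a threshold of 0.05. Fold changes on this scale understate changes of low genes. For 2 libraries against 2 no two-sided exact p is below 0.333, so calls rest on the spread shared across genes and lines. The wider spread between the libraries of primed ESCs was not modelled separately. A p above the threshold does not show that values were equal. The 7 comparisons set each other line against naïve ESCs, GKO against DKO and DKO against AKO, and included the interaction (GKO minus naïve) minus (DKO minus AKO).

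The 10 genes and the lists were chosen with earlier results of these data known. From 7 lists of regulators and targets, the text names the 3 largest rises and falls with a call, no overlap and 5 TPM or more on average in the higher of the lines compared (GKO, DKO and primed against naïve, GKO against DKO), every called gene in AKO and the interaction, and 18 regulators and targets regardless of value. A list gene withheld for evaluation is counted within its list and is not reported here by itself. Other named genes, such as Psrc1 among those most like a member, were chosen by Pearson correlation. Alternatives were a pseudocount of 0.1, no filter, a stricter filter (mean of 5 TPM), quantile and median-ratio scaling, no trend, the replicate number as a block, fewer lines in the fit, a minimum log2 change of 0.5, each library left out, and a common TPM sum. Gene positions and sequence came from GRCm39 with GENCODE vM39, in which 18994 symbols (86.9%) matched. The procedure was also run on simulated data with the same spread in all lines and few changed genes. These data differ in both, so that run does not check the calls given here.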

Additional observations from a re-analysis of the deposited data

Results flagged for a closer look

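For the genes of the p53 lists given here, the change on Gys1 knockout in naïve ESCs (GKO minus naïve) differed from that in AKO (DKO minus AKO, lines that also differ in Prkaa1 mRNA). The difference itself was tested as an interaction term in limma, at an adjusted p under 0.05 over all tested genes. Of the 10 genes followed throughout, Trp53inp1 (-0.72) and Mdm2 (-0.57) rose more from AKO to DKO, and Eda2r (0.71) rose more from naïve ESCs to GKO, with neighbours on the X chromosome shifting by 0.62 in the median, whose part was not tested.

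Among regulators of p53, the interaction was called higher for 3 of 12 inhibitors and 2 of 17 activators, with 12.8% of all tested genes called higher. The ubiquitin ligase Cop1 (0.59), Cdkn2a (0.76), the kinase Hipk2 (0.75) and the repair factor Nbn (0.40) were called lower in DKO than in AKO, with no call in GKO against naïve ESCs. The fall from AKO to DKO was called in only 10 of 20 settings for Nbn and in 15 of 20 for Cdkn2a. The deubiquitinase Usp10 (0.41) was called higher in GKO against naïve ESCs and not called in DKO against AKO.

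Of the 47 further targets, the interaction was called higher for 4 and lower for 12, with 12.8% and 13.1% of all tested genes called. Among targets, Trp53i11 (1.45), Ier5 (1.12), Gadd45a (0.93) and Bid (0.28) had a positive difference. Ier5, an immediate early gene, was at 3.85 and 4.25 TPM (GKO) and 1.38 and 1.42 TPM (DKO), against 3.34 and 3.37 TPM (naïve ESCs) and 3.56 and 3.46 TPM (AKO), so that DKO stood below the rest of the naïve medium. The difference was negative for Plk2 (-1.36), Dcxr (-0.89), Cpt1c (-0.80), Siva1 (-0.64), Triap1 (-0.54), Tnfrsf10b (-0.51), Gpx1 (-0.49), Prkab2 (-0.41), Sesn2 (-0.37), Tsc2 (-0.30) and Bax (-0.19). Prkab2 encodes a regulatory subunit of AMPK and was at 7.80 and 7.82 TPM (DKO) against 5.81 and 6.08 TPM (AKO). Triap1, an inhibitor of apoptosis whose protein acts in mitochondria, was at 17.5 and 19.2 TPM in GKO and between 26.8 and 30.8 TPM in the other libraries of the naïve medium.

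Many of these differences were near the threshold. Trp53i11, Ier5, Dcxr, Cpt1c, Siva1, Hipk2 and Usp10 were called in all settings with a value. Bax was called in 5 of 20 settings (adjusted p 0.0246 to 0.174), Prkab2 in 6 (0.00664 to 0.132), Cdkn2a in 8 (0.000387 to 0.264), Plk2 in 10 (0.000256 to 0.159), Nbn in 11 (0.00283 to 0.0808), Sesn2 in 12 (0.00815 to 0.0706), and Gadd45a and Cop1 in 13 (0.00838 to 0.155 and 0.00220 to 0.0882). Each of these 8 was lost on leaving out at least 1 replicate of naïve ESCs and at least 1 of AKO. Triap1 was called in 15, Gpx1 and Tsc2 in 16, Tnfrsf10b in 17 and Bid in 19 of 20 settings, and each of them was lost without replicate 1 of naïve ESCs.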

How the results depend on the processing

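Over all alternatives, the 10 genes gave 1277 results with the same direction and side of the threshold, 73 that lost a call, 31 that gained one and 9 with the opposite sign, and causes were not tested. The opposite signs were Trp53 in AKO (-0.032 under quantile normalization, -0.015 with a common sum, -0.021 to 0.021 with 1 library left out), Trp53 in primed ESCs (0.186, called at 0.0206, and 0.114 under those scalings, -0.212 to 0.090 with 1 library left out), Trp53 in GKO against DKO (0.004 with a common sum) and Phlda3 in AKO (-0.065 to 0.032 with 1 library left out). Members called in primed ESCs went from 8 to 5 with no filter on low values and to 4 at a minimum log2 change of 0.5. Those in DKO against AKO went from 10 to 5 at that minimum and 6 to 10 with 1 library left out. Those for the interaction went from 3 to 1 with no filter, and those in AKO from 0 to 2 without the primed libraries. All of these counts also changed when 1 library was left out, and so did the shares of all tested genes called. Of all genes, 50.7% were called in primed ESCs with no filter and 53.5% at that minimum. The share was 16.0% in DKO against AKO at that minimum and 11.7% for the interaction with no filter. In AKO it was 1.09% without the primed libraries. A line left with 1 library is assumed to vary like the others. The replicate number as a block ended the calls of Aen in DKO (adjusted p = 0.0518) and of Cdkn1a in DKO against AKO (0.0565) and no other call of the 10 genes. Deviations of same-numbered libraries correlated between -0.13 and 0.08, so the numbers were not taken to pair the libraries. All genes called in AKO went from 27 to 13 with a pseudocount of 0.1, 54 with no filter, 17 at a mean of 5 TPM, 8 with the block, 0 in a fit of AKO and naïve ESCs alone, 131 without primed ESCs, 1 to 126 with 1 library left out, and 18 with a common sum. At a minimum log2 change of 0.5, all genes called went from 6241 to 2401 in GKO, 5544 to 1941 in DKO, 27 to 14 in AKO and 9643 to 6457 in primed ESCs. They went from 5252 to 1819 for GKO against DKO, 5587 to 1932 for DKO against AKO and 3116 to 1698 for the interaction. Without that minimum, fewer genes were called for the interaction when replicate 1 of naïve ESCs was left out. Of 141 calls of other named genes, 101 were kept in every setting, 40 were lost in at least 1, and 2 took the opposite sign in at least 1. With 2 libraries per line, unknown depth and unnamed clones, calls near the threshold, such as those of Trp53, Cdkn1a and Aen, are uncertain.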

Other observations

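Prkab1, for a regulatory subunit of AMPK, was between 19.7 and 23.7 TPM in all 10 libraries and was not called in any comparison. Cdx2, a trophectoderm transcription factor, was at 2.57 and 2.66 TPM (naïve ESCs), 1.93 and 1.97 TPM (AKO), 6.62 and 7.27 TPM (GKO), 6.73 and 6.86 TPM (DKO), and 0.502 and 0.0320 TPM (primed ESCs). It rose by 1.13 in GKO (adjusted p = 0.000283, limma) and 1.11 in DKO (adjusted p = 0.000417), while Elf5, another trophectoderm marker, was at most 0.182 TPM in any library. Gata3, also on that list, was under 1 TPM throughout and lowest in GKO and primed ESCs, with 0.0480 and 0.101 TPM (GKO), 0.619 and 0.495 TPM (DKO) and 0.911 and 0.629 TPM (naïve ESCs), and was not tested. Hand1, on the list too, was highest in GKO, at 0.575 and 1.04 TPM. It was at 0.127 and 0.0680 TPM (DKO) and 0.0950 and 0.0240 TPM (naïve ESCs), and was not tested. Krt7, the remaining gene, was at most 0.572 TPM in any library. These genes were chosen after their values were seen.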
